A study of Homo sapiens with 6 samples.

Results

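The 47 genes described here encode proteins of the G1/S transition and of DNA replication. They were chosen by name from 25680 gene symbols measured in U87, an established human glioblastoma cell line, labelled WT in genotype. Every library came from cells given Rhodamine-EPP6, a cyclic peptide that carries a fluorescent dye, at 500 nM and 37C for 1 h before FACS. The high uptake group was the brightest 30% of cells (3 libraries) and the low uptake group the dimmest 30% (3 libraries), both numbered 2, 3 and 4 in the labels. No library from cells without peptide stood beside them, so each value below sets high against low uptake among treated cells. The question of the series is which proteins bring such peptides into cells.

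Before S phase, origins of replication are licensed by ORC, CDC6 and CDT1, which load the ring of MCM subunits onto DNA. Cyclin E with its partner, the kinase CDK2, then helps to fire origins. CDC45 and the GINS complex join the MCM ring to form the active helicase, and polymerases copy DNA behind it with the sliding clamp PCNA. Transcription of many of these genes is driven by E2F factors and peaks from late G1 into S phase, so that their mRNA is widely used as a sign of cycling cells. In these bulk libraries, a larger share of cells in S phase and more of a transcript per cell cannot be told apart.

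Total counts ranged from 13712263 to 40742857 per library. Each of the 47 genes was counted in every library and passed the filter on low counts, which left 14598 genes for the test. The glioma markers were uneven: VIM stood between 11291 and 12619 TPM (the deposited level per transcript length) and CD44 between 619 and 759 TPM, while GFAP stayed between 0.188 and 0.562 TPM, and SOX2 and S100B were listed at 0 TPM in 5 and 4 of the 6 libraries. Of the 8 glioma markers tested none passed, beside 4.29% of all tested genes. In CPM, every high uptake value of CD44, CHI3L1 and PDGFRA lay above every low uptake value (37.5%, beside 13.0% of all tested genes). OLIG2 showed the reverse (12.5%, beside 11.4%), and GFAP, NES, VIM and EGFR overlapped. CHI3L1 differed most (log2 0.99, edgeR adjusted p = 0.0890). It had 157, 159 and 136 TPM in high uptake and 44.8, 83.0 and 94.7 TPM in low uptake. Markers of immune, endothelial and epithelial cells were under 3 TPM, with PTPRC up to 0.146, PECAM1 up to 0.724 and CDH1 up to 0.0448 TPM, except CD68 at 307 to 369 TPM. Of the 5 neuronal markers, SNAP25 passed as higher in high uptake (24.6 to 33.9 TPM, against 14.2 to 18.5 TPM in low uptake; log2 0.80, edgeR adjusted p = 0.00987) and MAP2 as lower (4.48 to 5.45 TPM in high uptake, against 6.11 to 6.61 TPM in low uptake; log2 -0.40, adjusted p = 0.0415). TUBB3 did not pass (323 to 373 TPM in high uptake, 268 to 319.9 TPM in low uptake), and RBFOX3 and SYP stayed under 2 TPM. The summed level of the 5 was 363 to 403 TPM in high uptake and 289.8 to 346 TPM in low uptake, most of it TUBB3, and the part of these markers in the results below was not tested. The libraries numbered 2 stood apart from the others of both groups on the second principal component (31.5% of the variance; 18.6 and 23.8, against -23.1 to -4.99 for the other libraries). Whether the replicates were separate cultures is not stated, so the p-values reflect a spread between libraries that may be technical.

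As a group, the 47 genes made up slightly more of the transcript pool in high uptake. Their summed level was 4232, 4120 and 4099 TPM in high uptake replicates 2, 3 and 4, against 3775, 3783 and 3785 TPM in low uptake replicates 2, 3 and 4. The groups did not overlap, and the 3 low uptake libraries lay close together in TPM (SD 4.93). In TMM-scaled CPM the sums were 4787, 4787 and 4610 in high uptake, against 4334, 4478 and 4455 in low uptake. These did not overlap either, but the low uptake libraries were less close (SD 77.5 CPM). The 4 genes of deoxynucleotide supply held a large part of the TPM difference. Their mean sum was 1102 TPM in high and 913 TPM in low uptake, beside 4150 and 3781 TPM for all 47. Singly, the differences were small. The log2 fold changes (high over low uptake, edgeR) ran from -0.16 for GINS3 to 0.44 for CCNE2, with 33 above 0 and 14 below, and a median of 0.10, beside -0.00 over all tested genes. The median was lowest without high uptake replicate 3 (0.0627) or low uptake replicate 2 (0.0632). By edgeR's quasi-likelihood test with Benjamini-Hochberg adjustment over all genes at a threshold of 0.05, only TYMS passed among the 47. It was higher, 46 genes did not pass and none was lower; of all tested genes 4.29% passed, 3.03% higher and 1.26% lower. At an unadjusted p under 0.05 there were 9 of the 47, all higher, beside 18.4% of all genes.

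**Figure D1:**
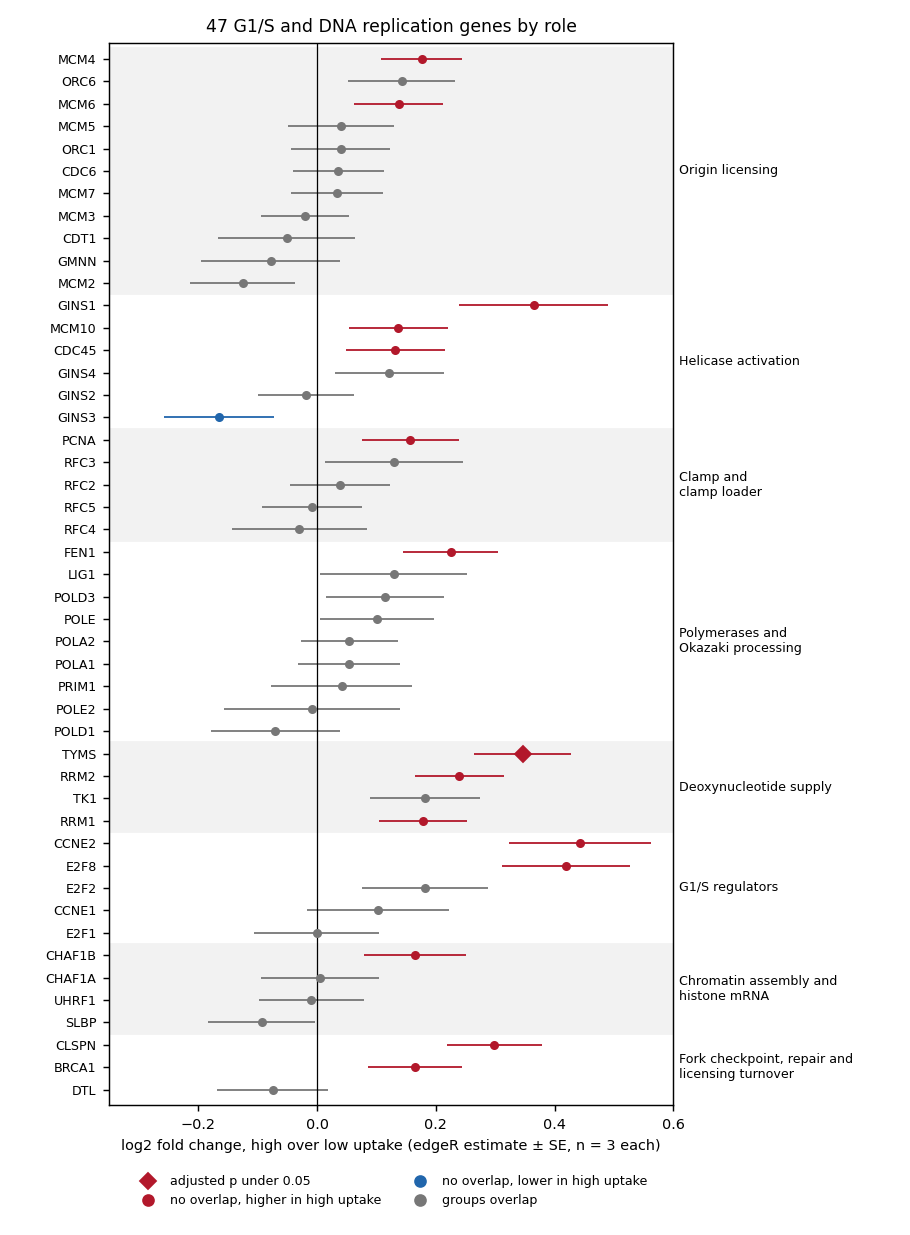
Log2 fold change (x axis, high over low uptake, edgeR estimate ± SE, 3 libraries each) of the 47 genes, grouped by role. The diamond marks TYMS, the only gene past the threshold; red marks 15 genes with every high uptake value above every low uptake value, blue marks GINS3 with the reverse, and grey marks overlap.

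Genes whose libraries separated by group were counted as well. For 15 of the 47 genes (31.9%) all 3 high uptake values in CPM (counts relative to the TMM-scaled library size) lay above all 3 low uptake values, as did 13.0% of all tested genes. For GINS3 alone (2.13%) they lay below, as did 11.4% of all tested genes (24.4% in either direction). The 15 had log2 fold changes from 0.13 to 0.44, that is 1.10- to 1.36-fold. They were MCM4, MCM6, MCM10, CDC45, GINS1, PCNA, FEN1, RRM1, RRM2, TYMS, CCNE2, E2F8, CHAF1B, CLSPN and BRCA1. In the list of gene symbols that makes up the authors' deposited table of the series, which gives neither values nor directions, 9 of the 47 appear (19.1%), beside 15.8% of all tested genes. These 9 in the authors' deposited table are TYMS, E2F8, CCNE2, CLSPN, RRM2, GINS1, FEN1, MCM4 and RRM1, which are the 9 of smallest p among the 47 here. The list belongs to the same series, and its title names a p threshold of 0.05 without the test. The match is therefore no independent support.

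Promoter sequences are shown for 8 of the genes because shared E2F control is what these genes are best known for. The first 6 below separated the groups upward and E2F1 and MCM3 did not. Each is the stretch from 180 bases before to 15 bases after the annotated start, from RefSeq on GRCh38.p14. Positions are chr18:657473-657667 (plus strand) for TYMS, chr1:35769964-35770158 (minus strand) for CLSPN, chr20:25407493-25407687 (plus strand) for GINS1, chr2:135876429-135876623 (minus strand) for MCM6, chr11:4094505-4094699 (plus strand) for RRM1, chr11:61792731-61792925 (plus strand) for FEN1, chr20:33686371-33686565 (minus strand) for E2F1 and chr6:52284728-52284922 (minus strand) for MCM3. They are written 5′ to 3′ on the gene's strand, and capitals mark each match to an E2F-type motif, TTTCCCGC, TTTCGCGC, TTTGCCGC or TTTGGCGC, or its reverse complement.
TYMS: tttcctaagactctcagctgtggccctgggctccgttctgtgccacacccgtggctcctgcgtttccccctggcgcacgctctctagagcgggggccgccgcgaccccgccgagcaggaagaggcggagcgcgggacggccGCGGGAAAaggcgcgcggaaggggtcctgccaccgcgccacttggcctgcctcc
CLSPN: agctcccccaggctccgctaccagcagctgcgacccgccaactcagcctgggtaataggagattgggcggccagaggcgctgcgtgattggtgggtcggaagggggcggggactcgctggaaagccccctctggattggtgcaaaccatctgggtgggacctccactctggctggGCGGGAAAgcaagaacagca
GINS1: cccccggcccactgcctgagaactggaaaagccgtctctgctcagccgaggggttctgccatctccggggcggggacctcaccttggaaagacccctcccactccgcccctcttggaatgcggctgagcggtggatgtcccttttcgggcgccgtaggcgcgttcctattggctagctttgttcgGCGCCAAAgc
MCM6: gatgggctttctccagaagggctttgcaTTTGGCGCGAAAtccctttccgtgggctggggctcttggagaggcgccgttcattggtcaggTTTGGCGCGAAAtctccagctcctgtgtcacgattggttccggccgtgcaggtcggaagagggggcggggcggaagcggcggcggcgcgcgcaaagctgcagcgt
RRM1: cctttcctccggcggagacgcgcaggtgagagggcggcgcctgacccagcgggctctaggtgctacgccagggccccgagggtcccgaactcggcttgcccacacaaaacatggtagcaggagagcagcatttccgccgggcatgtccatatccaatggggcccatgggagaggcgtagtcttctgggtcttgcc
FEN1: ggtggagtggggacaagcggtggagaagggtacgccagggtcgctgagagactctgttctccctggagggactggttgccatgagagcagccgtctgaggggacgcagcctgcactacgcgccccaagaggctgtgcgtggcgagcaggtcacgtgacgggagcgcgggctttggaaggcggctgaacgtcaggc
E2F1: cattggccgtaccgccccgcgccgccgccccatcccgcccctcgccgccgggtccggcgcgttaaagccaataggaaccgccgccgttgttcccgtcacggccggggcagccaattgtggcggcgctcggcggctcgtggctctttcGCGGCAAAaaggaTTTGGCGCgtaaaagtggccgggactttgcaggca
MCM3: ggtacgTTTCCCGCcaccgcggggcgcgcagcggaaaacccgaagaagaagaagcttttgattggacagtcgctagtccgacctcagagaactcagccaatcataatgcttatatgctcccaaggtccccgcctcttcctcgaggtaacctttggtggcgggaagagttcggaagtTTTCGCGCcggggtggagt
The match began 39 bases before the start in TYMS and 5 before it in CLSPN, at base 6 after the start in GINS1, and at bases -33 and -20 in E2F1 and -174 and -4 in MCM3. MCM6 held the 12-base run TTTGGCGCGAAA at -152 and again at -90, in which a match on each strand overlaps the other. RRM1 and FEN1 had no match in this window.

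The promoter table was matched for 41 of the 47 genes, all but E2F8, GINS4, MCM4, POLD3, MCM5 and CCNE2. Of these 41, 23 (56.1%) held an E2F-type match in at least 1 of their windows of 300 bases, against 3.99% of all 27305 genes in the table. A CCAAT box (CCAAT or ATTGG), which binds NF-Y, was present for 25 of the 41 (61.0%) and for 39.7% of all genes. Among the 12 matched genes that separated the groups upward, 5 held an E2F-type match, against 18 of the other 29. The difference between these counts was not tested.

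Deoxynucleotide supply was the role group with the clearest separation. Its 4 genes had a summed level of 1156, 1062 and 1087 TPM in high uptake, against 914, 912 and 912 TPM in low uptake, with no overlap. TYMS encodes thymidylate synthase, which makes the thymine nucleotide dTMP. It stood at 202, 174 and 179 CPM in high uptake, against 149, 146 and 141 CPM in low uptake (replicates 2, 3 and 4 in this order, here and below). Every high uptake value was above every low uptake value. The log2 fold change of TYMS was 0.35 (SE 0.0811, edgeR adjusted p = 0.0370), a 1.27-fold difference. The call was lost without high uptake replicate 2 (adjusted p = 0.126) or 4 (0.0814), without low uptake replicate 3 (0.124) or 4 (0.179), and with library totals in place of TMM (0.0552). In the GENCODE annotation, 58.2% of TYMS exon bases overlap exons of ENOSF1 on the opposite strand. Exons of TYMSOS, also on the opposite strand, overlap 6.38% of TYMS exon bases. No source used here gives the strand setting, so reads of these genes cannot be told apart. TYMSOS was at 29.3, 30.1 and 25.9 CPM in high uptake, against 21.2, 21.8 and 24.5 CPM in low uptake. Its log2 fold change was 0.34 (edgeR adjusted p = 0.0913). ENOSF1 itself was at 184, 155 and 168 CPM in high uptake, against 149, 146 and 137 CPM in low uptake (log2 0.23, adjusted p = 0.163).

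RRM2 and RRM1 encode the small and large subunits of ribonucleotide reductase, which makes deoxynucleotides from ribonucleotides. RRM2, the subunit that is made chiefly in S phase, stood at 408, 358 and 389 CPM in high uptake, against 332, 314 and 332 CPM in low uptake (log2 0.24, SE 0.0747, adjusted p = 0.103). RRM1 stood at 298, 266 and 285 CPM in high uptake, against 257, 239.7 and 253 CPM in low uptake (log2 0.18, SE 0.0748, adjusted p = 0.230). Both separated the groups without passing the test. The ratio of RRM2 to RRM1 in TPM was 1.27, 1.25 and 1.27 in high uptake and 1.20, 1.22 and 1.22 in low uptake. TK1, thymidine kinase, had the highest mean level of all 47 genes per length, at 321, 340.4 and 299.7 TPM in high uptake, against 250.5, 298 and 278 TPM in low uptake. The groups did not overlap in TPM but did in CPM, where low uptake replicate 3 lay above high uptake replicate 4, and TK1 did not pass (log2 0.18, SE 0.0929, adjusted p = 0.334).

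**Figure D2:**
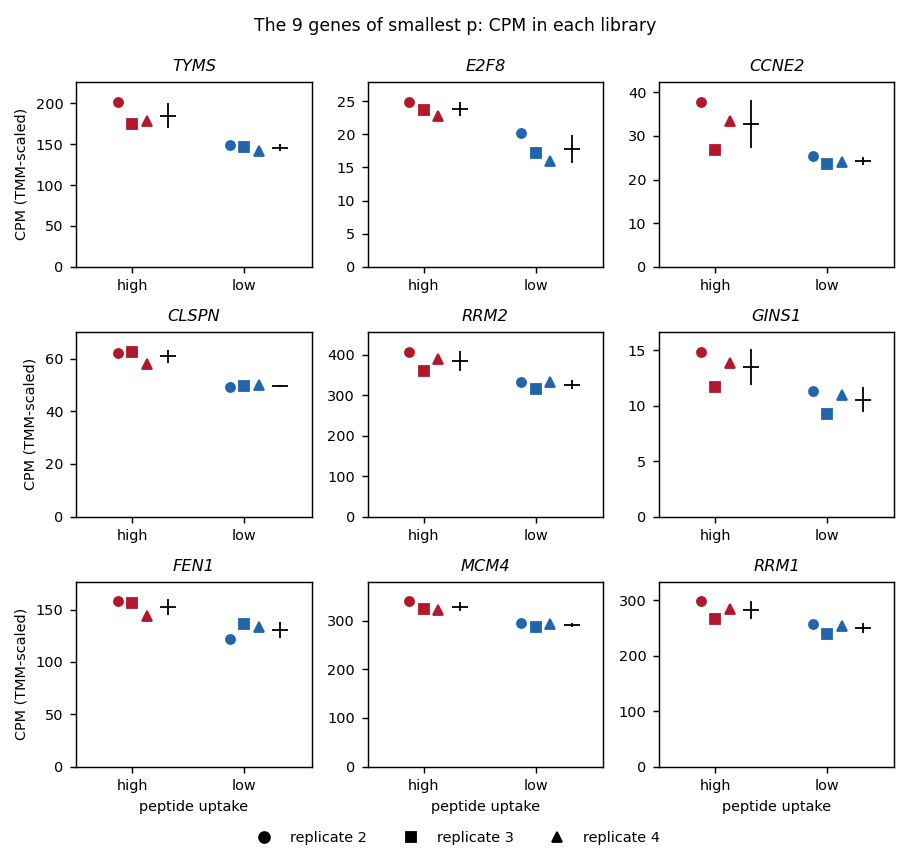
CPM (y axis, TMM-scaled, from 0) in each high and low uptake library for the 9 genes of smallest p; symbols give the replicate number and black bars the mean ± SD of 3 libraries. In all 9 panels each high uptake library lies above each low uptake library, by a narrow gap for CCNE2 (26.9 against 25.3 CPM) and GINS1 (11.7 against 11.4 CPM).

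Among the G1/S regulators, E2F8 and CCNE2 differed most and E2F1 least. CCNE2 encodes cyclin E2, a partner of CDK2. It had 37.9, 26.9 and 33.5 CPM in high uptake, against 25.3, 23.5 and 24.0 CPM in low uptake, with the largest log2 fold change of the 47 genes (0.44, SE 0.119, adjusted p = 0.0630). High uptake replicate 3 lay close to the low uptake libraries. In the GENCODE annotation, 47.5% of CCNE2 exon bases overlap INTS8 on the opposite strand, with the same limit on strand; INTS8 itself was at 63.5, 49.9 and 61.7 CPM in high uptake, against 59.0, 50.8 and 50.5 CPM in low uptake (log2 0.13, adjusted p = 0.578). Its relative CCNE1, cyclin E1, was at 10.7, 13.3 and 12.4 CPM in high uptake and 10.7, 12.2 and 10.7 CPM in low uptake, and the groups overlapped (log2 0.10, SE 0.119, adjusted p = 0.712).

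E2F8 encodes an atypical E2F factor that represses E2F targets and is itself transcribed by E2F. It had 24.96, 23.7 and 22.8 CPM in high uptake, against 20.2, 17.1 and 16.0 CPM in low uptake (log2 0.42, SE 0.108, adjusted p = 0.0542). The groups did not overlap. E2F1, an activating E2F factor and the member of this role with the highest level per length, had 138, 175 and 148 CPM in high uptake, against 136, 162 and 162 CPM in low uptake (log2 -0.00, SE 0.105, adjusted p = 0.998). The activator E2F2 stood at log2 0.18 (SE 0.106, adjusted p = 0.396), and its groups overlapped by 1 library, high uptake replicate 4. DESeq2 on the same counts called TYMS, CCNE2, E2F8 and CLSPN (adjusted p = 0.00580, 0.0151, 0.0216 and 0.0315), 4 of the 47, all higher, beside 6.08% of all tested genes (4.08% higher and 1.99% lower).

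The licensing genes differed little. Of these 11 genes none passed, 7 had log2 fold changes above 0 and 4 below, and the median was 0.04. The 6 MCM subunits form one ring, yet their differences spread from -0.13 for MCM2 to 0.18 for MCM4. MCM4 stood at 340.2, 325 and 324 CPM in high uptake, against 295, 287 and 293 CPM in low uptake (SE 0.0680, adjusted p = 0.191), and the groups did not overlap. MCM2 stood at 191, 225 and 189 CPM in high uptake, against 206, 229.9 and 224 CPM in low uptake (SE 0.0880, adjusted p = 0.494), and the groups overlapped. MCM6 separated the groups upward (log2 0.14), and MCM3, MCM5 and MCM7 lay between -0.02 and 0.04.

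The TPM ratio of MCM4 to MCM2, a pair picked after their values were seen, was 1.27, 1.03 and 1.22 in high uptake and 1.02, 0.891 and 0.932 in low uptake. MCM5 had the highest level of the licensing genes, at 238, 270.2 and 229 TPM in high uptake and 219, 240.7 and 239.8 TPM in low uptake. The origin recognition subunits ORC1 and ORC6 had log2 fold changes of 0.04 and 0.14. The loading factor CDC6 was at 0.04, its partner CDT1 at -0.05, and GMNN, which encodes geminin, the inhibitor of CDT1, at -0.08. None of these 5 separated the groups.

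None of the 6 helicase activation genes passed, and 4 had log2 fold changes above 0 and 2 below. GINS1 had 14.9, 11.7 and 13.8 CPM in high uptake, against 11.4, 9.23 and 11.0 CPM in low uptake (log2 0.36, SE 0.125, adjusted p = 0.138), without overlap. GINS3, another subunit of the same complex, had 22.5, 22.2 and 21.9 CPM in high uptake, against 26.5, 24.95 and 23.1 CPM in low uptake (log2 -0.16, SE 0.0929, adjusted p = 0.381). It was the only one of the 47 genes with every high uptake value below every low uptake value. GINS2 had the highest level of this role, at 83.9, 79.99 and 85.3 TPM in high uptake and 84.5, 79.3 and 82.8 TPM in low uptake, and GINS4 had a log2 fold change of 0.12. CDC45 (0.13) and MCM10 (0.14), which helps to activate the helicase, separated the groups upward without passing.

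At the fork itself, FEN1 and PCNA stood higher and the polymerase genes overlapped. FEN1, the flap endonuclease that trims Okazaki fragments, had 158, 156 and 144 CPM in high uptake, against 122, 136 and 133 CPM in low uptake (log2 0.22, SE 0.0797, adjusted p = 0.153). PCNA had 138, 123 and 123 CPM in high uptake, against 119.6, 108.7 and 117 CPM in low uptake (log2 0.16, SE 0.0818, adjusted p = 0.344). Both separated the groups. The clamp loader subunits RFC2, RFC3, RFC4 and RFC5 ranged from -0.03 to 0.13 and the polymerase and primase genes POLA1, POLA2, PRIM1, POLD1, POLD3, POLE and POLE2 from -0.07 to 0.11. LIG1, the ligase that joins Okazaki fragments, was at 0.13. All of these overlapped between groups.

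Of the remaining roles, CLSPN stood out. It encodes claspin, which links the fork to the checkpoint kinase CHK1, and had 62.1, 62.7 and 58.1 CPM in high uptake, against 49.3, 49.5 and 49.8 CPM in low uptake (log2 0.30, SE 0.0807, adjusted p = 0.0634). The low uptake libraries differed by less than 1 CPM and lay well below the others. BRCA1, a repair factor, stood at 93.98, 85.95 and 89.3 CPM in high uptake, against 84.1, 78.9 and 77.3 CPM in low uptake (log2 0.16, SE 0.0797, adjusted p = 0.304), without overlap. DTL, which targets CDT1 for destruction, was at 28.1, 26.2 and 30.1 TPM in high uptake and 32.3, 27.7 and 26.7 TPM in low uptake, with overlap.

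Chromatin assembly gave no common direction. CHAF1B, a subunit of the histone chaperone CAF-1, had 41.96, 38.1 and 38.3 CPM in high uptake, against 34.9, 35.7 and 35.2 CPM in low uptake (log2 0.16, SE 0.0851, adjusted p = 0.339), without overlap. Its partner CHAF1A was at 0.00 and UHRF1, which maintains DNA methylation, at -0.01. SLBP, which binds the stem-loop of histone mRNA, had 135, 115 and 123 TPM in high uptake and 142, 119.7 and 126 TPM in low uptake, and its groups overlapped (log2 -0.09, SE 0.0902, adjusted p = 0.640).

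**Figure D3:**
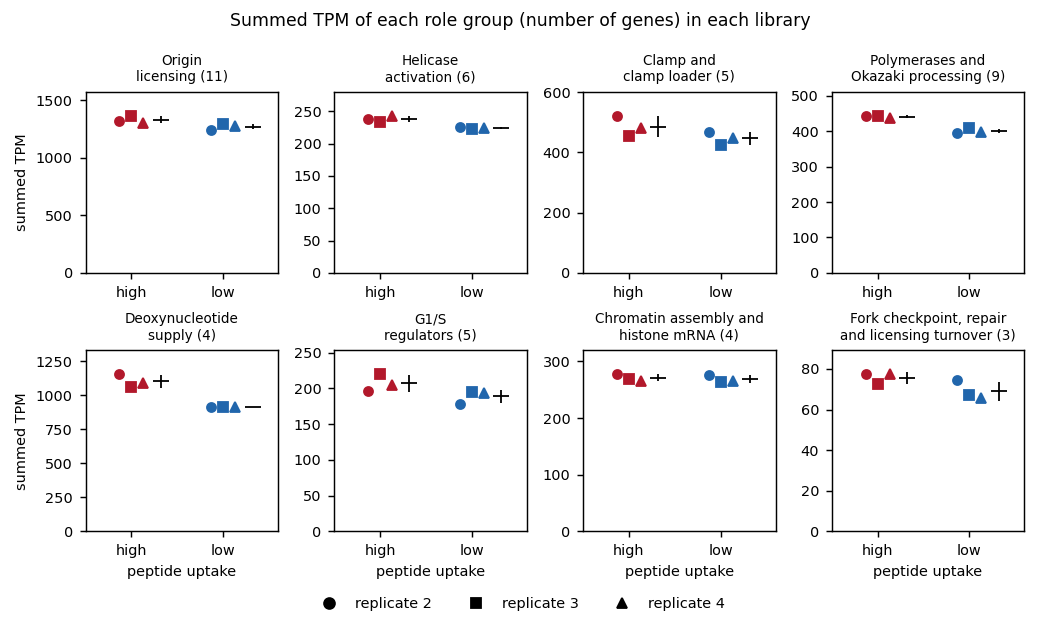
Summed TPM (y axis, from 0) of the genes of each role, by high and low uptake library; symbols give the replicate number and black bars the mean ± SD of 3 libraries. Deoxynucleotide supply shows the widest gap (1062 to 1156 TPM in high uptake, 912 to 914 TPM in low uptake). In TPM, clamp and clamp loader, chromatin assembly and fork checkpoint overlap between groups. In TMM-scaled CPM (not drawn), origin licensing (1718 to 1851 in high uptake, 1667 to 1776 in low uptake) and the G1/S regulators (228 to 256 and 207 to 229) overlapped too. Fork checkpoint did not overlap in CPM (198 to 209 and 179 to 194).

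Within each group, the libraries differed from one another along the GC content of the transcripts. Across the 47 genes, the deviation of high uptake replicate 3 from its group mean in log2 CPM was larger at higher GC content (Pearson's r 0.87, Spearman's rho 0.87), and that of high uptake replicate 2 ran the other way (r -0.75, rho -0.73). In low uptake the same values were r -0.75 and rho -0.75 for replicate 2, and r 0.76 and rho 0.76 for replicate 3. Replicate 4 went opposite ways in the groups, with r -0.61 and rho -0.67 in high uptake and r 0.46 and rho 0.44 in low uptake. These genes share their libraries and are not replicates, and the 13561 tested genes with a GC value showed the same signs in each library (r 0.54 for high uptake replicate 3 and -0.52 for low uptake replicate 2). GC-rich genes such as E2F1 (62.5% GC), POLD1 (65.1%) and CDT1 (64.9%) were highest in replicate 3 among the high uptake libraries, and GC-poor genes such as CCNE2 (35.4%), RFC3 (39.1%) and GINS1 (41.4%) lowest there.

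**Figure D4:**
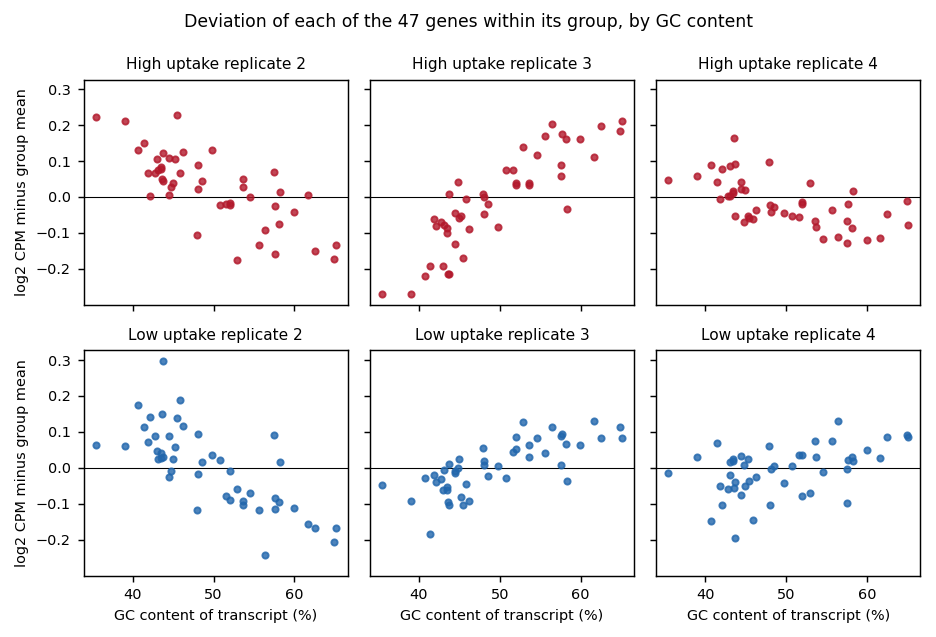
Deviation of each of the 47 genes from its group's mean (y axis, log2 CPM) against the GC content of its transcript (x axis, %), in each high uptake library (top) and low uptake library (bottom). Replicate 3 slopes upward and replicate 2 downward in both groups (r 0.87 and -0.75 in high uptake, 0.76 and -0.75 in low uptake), while replicate 4 slopes downward in high uptake (r -0.61) and upward in low uptake (r 0.46).

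The 15 genes that separated the groups upward had a median GC content of 44.8%, and the other 32 had 51.8%. The fold changes of the 47 genes were themselves lower at higher GC content (r -0.35, rho -0.30), while those of all tested genes showed almost no relation (r 0.01). With each library's GC trend removed, the relation over the 47 was almost as large (r -0.32, rho -0.25). In that fit edgeR called 13 of the 47 genes (27.7%), all higher, beside 19.9% of all tested genes (13.2% higher and 6.61% lower). They were the 9 genes of smallest p named above and TK1, BRCA1, PCNA and MCM6. Their log2 fold changes moved little: TYMS was at 0.36 (adjusted p = 0.000662), CCNE2 at 0.47 (adjusted p = 0.000437), E2F8 at 0.43 (adjusted p = 0.00219), CLSPN at 0.31 (adjusted p = 0.00507) and RRM2 at 0.25 (adjusted p = 0.00166). All 4 genes of deoxynucleotide supply were among the 13, and none of chromatin assembly was.

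Other genes of the pathway were read from the same fit. Of 39 further replication fork genes, 3 rose (7.69%) and none fell, beside 3.03% higher and 1.26% lower over all tested genes (median log2 0.03). With the GC trend removed, 7 were called higher (17.9%) and none lower, beside 13.2% higher and 6.61% lower over all tested genes in that fit. TOP2A, the topoisomerase that untangles newly copied DNA, had 441, 364 and 391 CPM in high uptake, against 312, 277 and 283 CPM in low uptake (log2 0.46, SE 0.0874, adjusted p = 0.0152). ASF1B, a histone chaperone, rose by 0.36 (adjusted p = 0.0484), and TICRR, an origin firing factor, by 0.39 (adjusted p = 0.0487). The call of TOP2A was lost without low uptake replicate 3 or 4 (adjusted p up to 0.0830), that of ASF1B without any of the 6 libraries (up to 0.183) and that of TICRR without any but low uptake replicate 2 (up to 0.205). Those of ASF1B and TICRR were also lost with DESeq2's size factors (0.0536 and 0.0514).

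Of 22 tested G1 regulators and inhibitors, 2 rose (9.09%) and none fell, beside the same 3.03% and 1.26% over all tested genes (median log2 0.01). With the GC trend removed, 5 were called higher (22.7%) and 4 lower, beside 13.2% higher and 6.61% lower over all tested genes in that fit. CDKN1A, the CDK inhibitor p21, had 278, 288 and 266 CPM in high uptake, against 169, 224 and 219 CPM in low uptake (log2 0.44, SE 0.103, adjusted p = 0.0365). E2F7, an atypical repressor like E2F8, had 130.5, 123 and 129 CPM in high uptake, against 106, 100.1 and 104.5 CPM in low uptake (log2 0.30, SE 0.0748, adjusted p = 0.0458). The CDKN1A call was lost without any library but high uptake replicate 3 or low uptake replicate 3 (adjusted p up to 0.0848), and that of E2F7 without any but high uptake replicate 3 (up to 0.201). Of 9 tested p53 and quiescence genes none passed in edgeR, beside 4.29% of all tested genes. At an unadjusted p under 0.05 there were 6 of the 9, beside 18.4% of all genes, and DESeq2 called 1, beside 6.08%. With the GC trend removed, 6 of the 9 were called higher (66.7%) and 2 lower, beside 13.2% higher and 6.61% lower over all tested genes in that fit. TP53INP1 had the smallest p among them (log2 0.58, SE 0.160, adjusted p = 0.0712).

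Genes of G2 and mitosis did not share the upward direction. Of 30 tested, 1 passed upward and 1 downward (6.67%, beside 4.29% of all tested genes), and the median was -0.11 (log2). With the GC trend removed, 5 were called higher (16.7%) and 7 lower, beside 13.2% higher and 6.61% lower over all tested genes in that fit. For 8 of them (26.7%) every high uptake value was below every low uptake value, beside 11.4% of all tested genes. For 2 (6.67%) every high uptake value was above, beside 13.0%. UBE2C, an enzyme of the anaphase-promoting complex pathway, had 152, 145 and 139 CPM in high uptake, against 106, 118 and 118 CPM in low uptake (log2 0.35, SE 0.0798, adjusted p = 0.0321). CDC20, an activator of that complex, had 175, 191 and 178 CPM in high uptake, against 236, 229 and 217 CPM in low uptake (log2 -0.32, SE 0.0751, adjusted p = 0.0352). Without any library but high uptake replicate 3, both calls were lost (adjusted p up to 0.113 and 0.139). Summed, the 30 genes stood at 3972, 3663 and 3984 TPM in high uptake and 4320, 3804 and 3803 TPM in low uptake, with overlap.

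Replication-dependent histones are expressed in S phase, but 41 of their 73 genes in the files were below the filter on counts. Of the 32 tested, none passed in edgeR and 0 in DESeq2, and the median was -0.28 (log2). Summed over the 73 genes, levels were 330, 379 and 358 TPM in high uptake. In low uptake they were 335, 352 and 352 TPM, with overlap. At an unadjusted p under 0.05 there were 6 of the 32, about the share of all genes (18.4%). HIST1H3B had the smallest p, with 10, 4 and 2 counts in high uptake and 28, 11 and 16 counts in low uptake (log2 -1.84, SE 0.477, adjusted p = 0.0543). DESeq2 gave no adjusted p for HIST1H3B, so this gene could not be called there. Histone genes of this family are near-identical, so that reads could be split between them in counting.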

How the data were processed

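The 6 libraries were built with a strand-preserving kit, per the labels' protocols. The tools fastp, STAR and featureCounts and the build hg19 come from the submitters' processing notes; no versions, annotation or strand setting are stated. For each gene symbol the deposited files gave whole read counts, and FPKM and TPM made by the authors, per the file headers. A deposited list of gene symbols carried no values. Counts were tested, TPM gave levels per length, and FPKM gave each gene's model length.

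The 47 genes and the lists were chosen with earlier results of these data known. Groups and replicate numbers came from the titles. Genes were kept by filterByExpr (minimum count 10, minimum total 15; 14598 of 25680). edgeR 4.0.16 (R 4.3.3) was run with TMM, robust quasi-likelihood F-tests without covariate, and Benjamini-Hochberg adjustment at 0.05. The SE is the log2 fold change divided by the square root of F. DESeq2 1.42.0, limma 3.58.1 (voom), other scalings and filters, GC and length trends (lowess, span 0.3) and left-out libraries were alternatives. GC content came from GENCODE v29 transcripts, and 92.9% of tested genes had a value. Tests were checked on simulated counts. In each role group the gene of smallest p and that of highest mean TPM were named, with those past the threshold; in each other list, up to 4 past the threshold or else that of smallest p.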

Additional observations from a re-analysis of the deposited data

How the results depend on the processing

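The direction and the side of the threshold were the same in 739 of 846 combinations of a gene of the 47 with an alternative (18 alternatives); 5 lost the call, 48 gained it and 54 changed sign, these in 16 genes whose log2 fold changes were at most 0.078 in size. None of the 15 genes that separated the groups upward changed sign. The causes of the shifts below were not tested.

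Genes called higher and lower over all genes numbered 1758 and 1418 with the replicate block, 1796 and 897 with the GC trend removed, and 2388 and 1439 with both. Higher and lower calls numbered 596 and 291 in DESeq2 and 595 and 294 with no filter on low counts. They numbered 391 and 122 with the length trend removed, and 518 and 270 without the libraries numbered 2. With library totals they numbered 337 and 201, with upper quartile scaling 373 and 189, and with DESeq2's size factors 427 and 189. With limma they numbered 425 and 178, and with a minimum of 50 counts 377 and 155. Leaving out 1 library gave 182 to 488 higher and 50 to 250 lower. Of the 47, 0 were called higher with library totals, 4 in DESeq2, 3 with no filter, 12 with the block, 13 with GC removed, 17 with both, 3 with both libraries numbered 2 left out, and 0 to 2 with 1 left out. Their median log2 fold change was 0.0755 with library totals, 0.122 with GC removed and 0.123 with GC removed and the block. In these settings the median over all tested genes was -0.0291, 0.0179 and 0.0184, against -0.0038 in the main fit. It thus moved in the same direction as the median of the 47. The median of the 47 was 0.0788 without the libraries numbered 2 (all genes -0.000484), and 0.0627 to 0.0856 with 1 left out (all genes -0.00959 to -0.00199).

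The lists below held 39, 22, 30, 9 and 32 tested genes in the main fit, in the order given. Of all tested genes, 4.29% were called in the main fit, 6.08% in DESeq2 and 19.9% with GC removed. With the block 1758 of 14598 were called higher and 1418 lower, and with both 2388 of 13561 higher and 1439 lower. The counts over all genes in the other settings are those given above. Of the other fork genes, 1 was called with DESeq2's size factors, upper quartile scaling, library totals, limma or a minimum of 50 counts, 7 with the block or GC removed, 9 with both, and 0 to 2 with 1 library left out. Of the G1 regulators, 1 was called with upper quartile scaling, library totals or length removed, 4 in DESeq2, with no filter or without the libraries numbered 2, 10 with the block, 9 with GC removed (5 higher, 4 lower), 13 with both, and 0 to 4 with 1 left out. Of the G2/M genes, 14 were called with the block, 12 with GC removed, 16 with both, 1 with length removed, 0 without the libraries numbered 2, and 0 to 3 with 1 left out. Of the p53 genes, 1 was called in DESeq2 or with no filter, 7 with the block, 8 with GC removed, 8 with both, 2 without the libraries numbered 2, and 0 to 2 with 1 left out. Of the histones, 1 was called with no filter, length removed or without the libraries numbered 2, 5 with the block, 4 with GC removed, 5 with both, and 0 to 1 with 1 left out.

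Sign changes (log2) with GC removed, and with GC removed and the block, gave 0.0133 and 0.00892 for GINS2, 0.00270 and 0.00332 for RFC5, 0.00367 and 0.00200 for POLE2, 0.0240 and 0.0235 for E2F1 and 0.0156 and 0.0174 for UHRF1. With length removed they gave 0.00118 for MCM3, 0.0672 for GINS2, 0.0381 for RFC4, 0.0348 for RFC5, 0.0454 for POLE2 and 0.0382 for E2F1. Without the libraries numbered 2 they gave 0.00172 for GMNN, -0.0269 for RFC2, 0.0402 for RFC5, 0.124 for POLE2 and 0.00599 for DTL. CHAF1A was at -0.0101 with upper quartile scaling, -0.0206 with library totals and -0.00426 in limma, POLE2 at 0.00104 in limma and E2F1 at 0.00282 with no filter. With 1 library left out, values ran from -0.00716 to 0.0737 for ORC1, -0.155 to 0.0343 for CDT1, -0.156 to 0.00441 for GMNN, -0.0704 to 0.0130 for MCM3, -0.0548 to 0.107 for MCM5, -0.0239 to 0.0795 for MCM7, -0.0152 to 0.0782 for RFC2, -0.157 to 0.0436 for RFC4, -0.0450 to 0.0359 for RFC5, -0.0295 to 0.137 for PRIM1, -0.101 to 0.169 for POLE2, -0.116 to 0.0740 for E2F1, -0.0962 to 0.0830 for CHAF1A and -0.0788 to 0.0552 for UHRF1.

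The main fit did not pair libraries by replicate number, because no source used here gives such a pairing. Deviations of same-numbered libraries correlated at 0.45, 0.30 and 0.087 for numbers 2, 3 and 4. Each high uptake library correlated best with the low uptake library of its own number. The next best values were -0.27, 0.22 and 0.052 for high uptake replicates 2, 3 and 4. Low uptake replicate 4, however, correlated best with high uptake replicate 3 (0.22). Whether equal numbers mark a shared sort was not tested. CDC20 lost its call with length removed (edgeR adjusted p = 0.0902) and without the libraries numbered 2 (0.0762). E2F7 lost its call with library totals (0.0719), upper quartile scaling (0.0553) and length removed (0.0520). High uptake replicate 3, with 13712263 counts, had the least depth.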
